A study of Mus musculus with 24 samples.

Results

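The injury response common to 3 nonhematopoietic cell populations of mouse hindlimb muscle comprised 8564 of the 15254 genes tested. A gene belonged to it when its fitted injury effect had the same sign in CD31+ endothelial cells, in mesenchymal stromal cells (MSC, sorted as Sca1+ PDGFRa+ cells without CD45 and CD31) and in satellite cells (MuSC, the muscle stem cells, sorted as Vcam1+ cells without Sca1, CD45 and CD31). The injury effect is the log2 ratio of the level 1 day after cardiotoxin injury to the level in uninjured muscle, and the 3 effects were averaged with equal weight. Of the 8564 genes, 3634 had effects above 0 and 4930 had effects below 0 in all 3 populations. A further 6690 tested genes had effects of mixed sign, and 37743 of the 52997 symbols in the count table had too few counts to be tested. The sign rule has no margin: among genes that passed the test below, the smallest effects inside it were 0.00046 for Cd151 in CD31+ cells and 0.00019 for Prrx1 in MSC, and the nearest outside were -0.00021 for Elf4 and 0.00054 for Gtf2i, both in MSC.

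The groups were CD31+ cells, MSC and MuSC from cardiotoxin-injured muscle at day 1, and the same 3 populations from uninjured muscle. All mice were C57BL/6 at 8 weeks of age, and the labels name no genotype, transgene or other agent in any group. Each group had 3 libraries, described as biological replicates, each from 1000 sorted cells. The labels do not say whether the populations of a condition came from the same mice, nor how many mice gave a library, so the 3 averaged effects may share animals. CD45+ (hematopoietic) libraries of the same series played no part in the choice of genes.

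Cardiotoxin is a snake venom toxin that lyses muscle fibers and largely spares the resident mononuclear cells, and the muscle then regenerates from its satellite cells with help from stromal, endothelial and immune cells. Quiescent cells that are about to grow make more ribosomes and nucleotides and raise their capacity for protein folding before they divide. Transcription factors of the Myc and AP-1 families are known to drive growth programs, while FoxO factors are known to maintain quiescence and catabolic programs such as autophagy.

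The 18 libraries held between 2301000 and 7650000 counts, and replicates correlated at r = 0.949 to 0.983 over genes, against at most 0.93 between groups. Each population was rich in its own markers: 12 endothelial markers summed to 13960 to 14880 CPM (counts scaled to a common library total) in injured and 17900 to 19320 CPM in uninjured CD31+ libraries, against at most 116 CPM in any MSC or MuSC library. The 12 stromal markers summed to 41200 to 60200 CPM in injured and 153400 to 196600 CPM in uninjured MSC, and the 12 satellite cell markers to 6982 to 7996 CPM in injured and 9369 to 10990 CPM in uninjured MuSC. MuSC libraries also held the stromal markers, at 2278 to 3149 CPM after injury, against 6295 to 6846 CPM without it. Levels below are CPM with TMM scaling and are shares of a library, so that fewer cells of a type and less RNA per cell cannot be told apart. The median gene had an effect of -0.09 in MSC with TMM scaling and of -0.25 with RLE scaling.

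At an adjusted p below 0.05 for the mean of the 3 effects (edgeR's quasi-likelihood test, Benjamini-Hochberg over all genes tested), 3196 genes of 1 sign rose, 21.0% of the genes tested, and 3814 fell, 25.0% of the genes tested, while 1448 genes (9.49%) passed with mixed signs. "Rose" and "fell" below refer to this test and to 1 sign in all 3 populations, unless a population is named. Changes of more than 2-fold in the mean were found for 1380 of the rises and 1783 of the falls. By population, 15.3% of the genes tested rose and 12% fell in CD31+ cells, 23.5% rose and 21.9% fell in MSC, and 20.2% rose and 25.2% fell in MuSC. Under the stricter reading that each population must pass by itself, 1378 genes rose (9.03% of those tested) and 783 fell (5.13%), while 155 genes (1.02%) passed in each population with opposing signs. The number of falls that passed in each population was 451 when 3 libraries were left out, the injured CD31+ library 1, which held macrophage markers, and injured MuSC libraries 2 and 3, which held the stromal gene Pdgfra (described further down). In 1670 rising genes (10.9% of those tested) and 1065 falling genes (6.98%) no injured library overlapped an uninjured library in any population.

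The leading genes below were picked among those without overlap of injured and uninjured libraries in any population, so that their separation is a description. Timp1 (chrX:20870166-20874735, GRCm38), an inhibitor of matrix metalloproteinases, stood at 50.2, 26.8 and 25.3 CPM in injured CD31+ cells, against 0.684, 0 and 0.918 CPM in uninjured CD31+ cells. In MSC it had 3294, 2072 and 2571 CPM after injury, against 47.4, 49.8 and 62.0 CPM without it. MuSC held 188, 566 and 252 CPM after injury, against 2.35, 1.15 and 13.0 CPM without it. No injured library overlapped an uninjured one of the same population, and although the levels differed widely between populations, the log2 effects of 5.92 ± 1.00, 5.64 ± 0.58 and 5.79 ± 0.65 in CD31+ cells, MSC and MuSC (± SE, 3 libraries a group) were of like size, for which the gene was in part named. The uninjured MuSC libraries differed among themselves, the third being the highest. The mean effect was 5.78 ± 0.41 (edgeR adjusted p = 4.3e-08).

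Ccl2 (chr11:82035571-82037453), the main chemokine that draws monocytes into tissue, had 20.4, 104 and 33.4 CPM in injured CD31+ cells and no count in any uninjured CD31+ library. Taking 3 counts over the uninjured group as the floor, this was an at least 182-fold higher level; such bounds, and the intervals of count ratios below, cover counting error only. The MSC libraries held 2472, 1279.7 and 2205 CPM after injury, against 28.5, 31.8 and 47.4 CPM without it. In MuSC the values were 22.4, 358 and 190.3 CPM after injury, against 0.214, 1.15 and 1.51 CPM without it. The injured MuSC libraries thus differed widely among themselves, and the 2 higher ones also held Pdgfra, the receptor by which MSC were sorted, at 49.4 and 25.3 CPM, against 0.292 CPM in the other injured MuSC library. The part of stromal RNA in the Ccl2 values of MuSC was not tested. Without these 2 libraries and the first injured CD31+ library, which held macrophage markers, the mean effect was 7.28 (edgeR adjusted p = 1.7e-05), against 8.18 ± 0.90 with all libraries, and the MuSC part of it rests on the 1 injured library of 22.4 CPM.

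Plaur (chr7:24462484-24475968), the receptor for urokinase, rose in all 3 populations with low spread. It had 152, 173 and 119.8 CPM in injured CD31+ cells, against 8.21, 13.6 and 5.51 CPM in uninjured ones. The values were 78.5, 58.4 and 49.2 CPM after injury against 8.11, 9.18 and 9.10 CPM without it in MSC, and 58.4, 60.2 and 66.8 CPM against 2.14, 4.23 and 3.03 CPM in MuSC. Its mean effect was 3.74 ± 0.15 (edgeR adjusted p = 5.2e-14). Tnfrsf12a (chr17:23675445-23677468), the receptor of the cytokine TWEAK, averaged 154 ± 5.52, 319 ± 50.7 and 591 ± 46.0 CPM (SD, n = 3) in injured CD31+ cells, MSC and MuSC, against 11.8 ± 5.67, 44.2 ± 8.27 and 57.1 ± 12.4 CPM in the uninjured cells, a mean effect of 3.33 ± 0.14. Fosl1 (chr19:5447547-5455946), an AP-1 subunit, averaged 99.6 ± 25.0, 89.8 ± 10.01 and 209 ± 9.36 CPM in the injured populations in the same order, against 5.81 ± 2.96, 1.45 ± 0.748 and 1.24 ± 1.59 CPM in the uninjured ones. Wherever 3 levels or effects follow each other below, the order is CD31+ cells, MSC, MuSC.

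**Figure D1:**
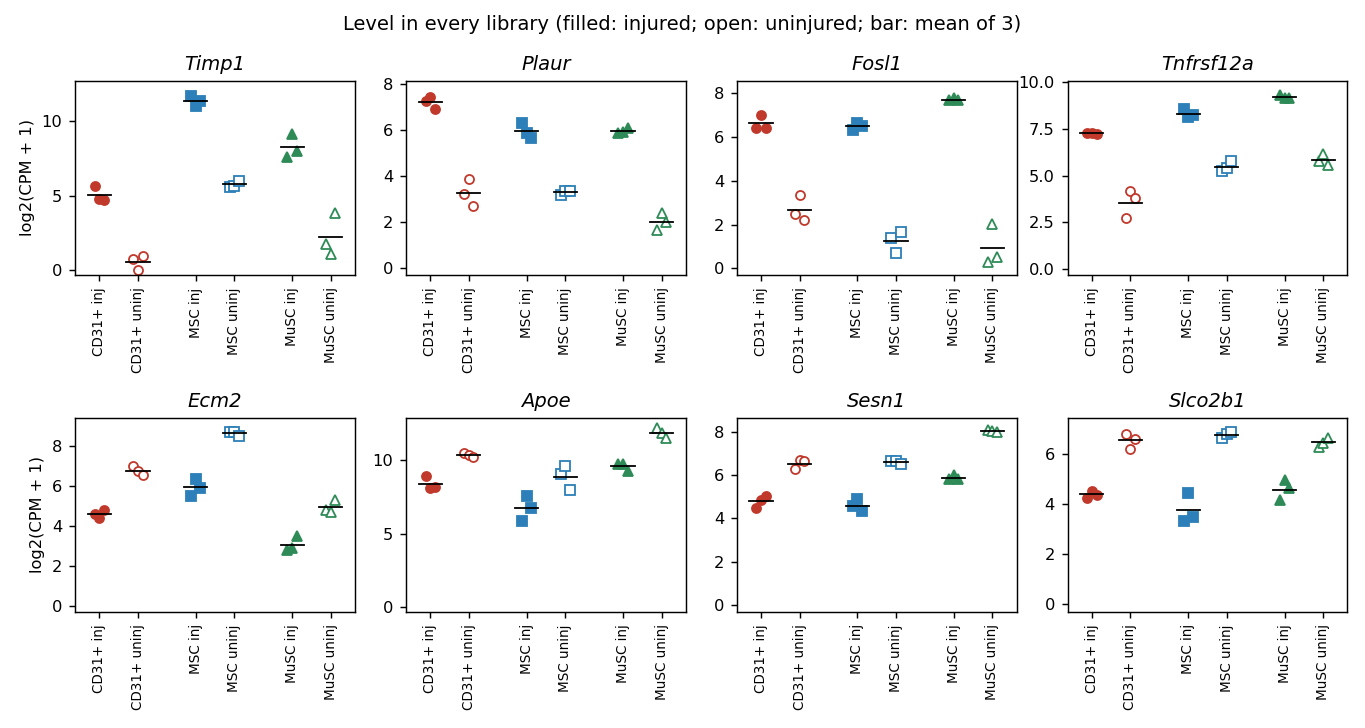
Level of 4 shared rises (top row) and 4 shared falls (bottom row) in every library, as log2(CPM + 1); filled symbols are injured and open symbols uninjured libraries of CD31+ cells, MSC and MuSC, and bars are means of 3 libraries. The genes were chosen for libraries that do not overlap between conditions, and Timp1 differs more in level between the populations than Plaur.

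Other rises with large effects in every population were Tnc, Hmga1, Tuba1c, Mt1, Mthfd2, Gprc5a and Smpdl3b. Tnc encodes tenascin C, a glycoprotein of provisional matrix, and averaged 74.2, 372 and 284 CPM after injury, against 4.03, 9.86 and 1.72 CPM without it. It shares exon bases with a gene on the opposite strand, and since the libraries do not mark strand, reads of the pair could not be told apart. The same holds for Fosl1 and Hmga1. Hmga1, an architectural chromatin protein of growing cells, stood at 39.5, 119 and 134 CPM after injury, against 5.67, 5.36 and 0.845 CPM without it. Mthfd2, a mitochondrial enzyme of the folate cycle, had 88.2, 179.9 and 248 CPM after injury, against 2.51, 33.9 and 9.36 CPM without it. Mt1, a metallothionein that binds zinc and copper, had 35.3, 1458 and 669.9 CPM after injury, against 0.61, 194 and 111 CPM without it. Tuba1c, an alpha tubulin, had a mean effect of 4.11 ± 0.13, Gprc5a, a membrane receptor induced by retinoic acid, one of 2.93 ± 0.22, and Smpdl3b, a membrane-anchored phosphodiesterase, one of 2.63 ± 0.32. By the rule for naming genes, the largest mean effects beyond these genes belonged to Asns, Ddah1, Mcm2 and Mcm5; Ddah1, which breaks down an inhibitor of nitric oxide synthesis, averaged 184, 29.4 and 114 CPM after injury, against 44.6, 0.971 and 1.07 CPM without it.

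**Figure D2:**
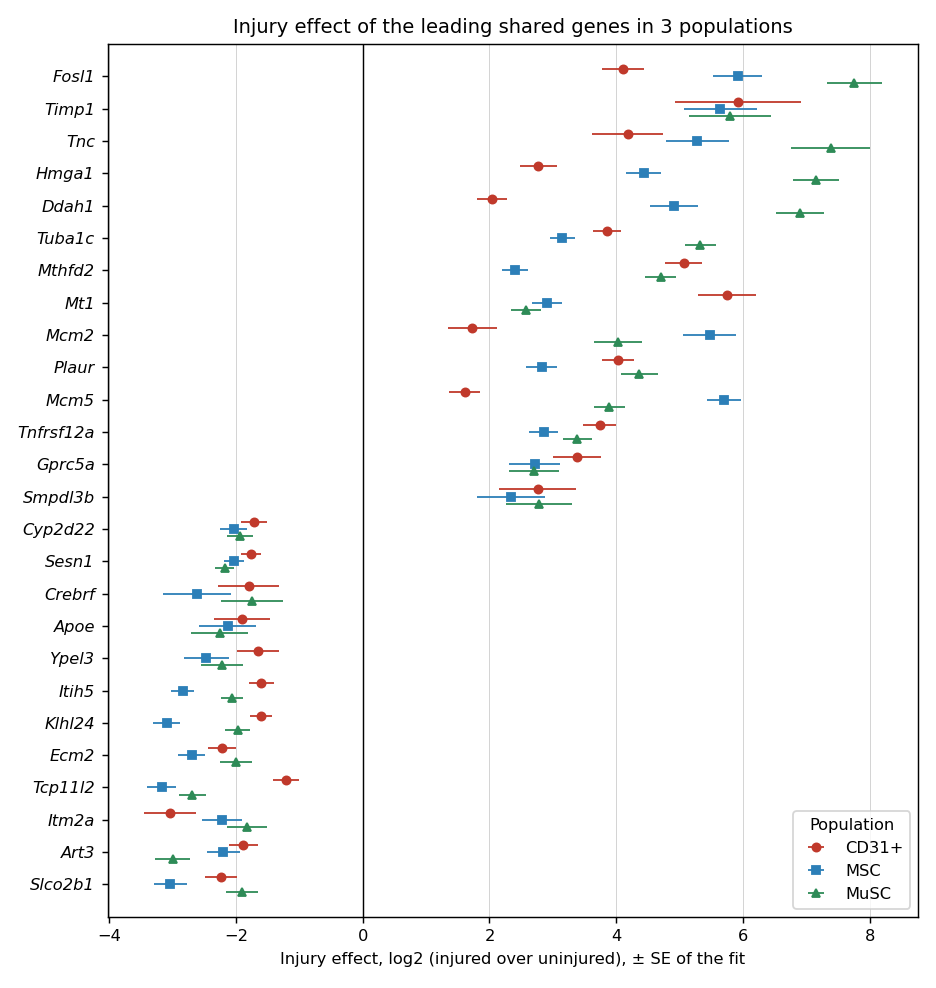
Injury effect (log2, injured over uninjured, ± SE of the fit) of leading shared genes in CD31+ cells, MSC and MuSC, ordered by mean effect; Ccl2 and Asns are left out because an uninjured group held no more than 1 count. The genes were chosen for effects of 1 sign, so the side of 0 on which their points lie is fixed by the choice.

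Among regulators, few whole families moved together. Of 10 tested genes of the Myc network, Myc was the sole rise and 6 fell. Myc, a transcription factor of cell growth, averaged 270.1 ± 39.2, 358 ± 37.3 and 488 ± 55.3 CPM after injury, against 15.2 ± 0.612, 85.1 ± 5.21 and 212 ± 43.4 CPM without it. Its antagonists of the Mxd family moved the other way: Mxd4 averaged 152, 63.5 and 33.1 CPM after injury, against 291, 163 and 114 CPM without it, and Mxi1 had a mean effect of -1.09 ± 0.16. Mnt, Mycn, Mlxipl and Mxd1 were the other falls.

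Of 20 AP-1 and immediate early genes, 5 rose (25%) and 3 fell (15%), against 21.0% and 25.0% of all genes tested. Between 3 and 8 of them rose under the other settings tried. Fosl1 and Ier3 (mean effect 0.76 ± 0.13) were among the rises, while Fos and Egr1, which respond within minutes to stimulation, fell with mean effects of -0.79 ± 0.14 and -1.13 ± 0.25. Of these AP-1 and immediate early genes, 1 rise and no fall passed in each population. By population 1, 3 and 10 of them fell, and 6, 5 and 3 rose. Of 18 genes of the JAK-STAT and interleukin 6 family response, 6 rose, among them Socs3, the feedback inhibitor of that pathway, at 137, 299 and 131 CPM after injury, against 30.7, 76.4 and 80.7 CPM without it. The receptor gene Lifr fell, with a mean effect of -1.11 ± 0.12. Of 14 NF-kB subunits and feedback genes 5 rose and none fell, with Nfkbia, which holds NF-kB in the cytoplasm, at a mean effect of 0.83 ± 0.07.

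Of 20 genes of TGF-beta and BMP signalling 4 rose (20%) and 6 fell (30%), shares near the 21.0% and 25.0% of all genes tested. Id1, a target of BMP signalling, rose with a mean effect of 1.49 ± 0.18, and the ligand genes Tgfb2 and Bmp6 fell with mean effects of -1.60 ± 0.13 and -1.44 ± 0.13. Of 16 feedback genes of the MAPK pathway 3 rose (18.8%) and 2 fell (12.5%), neither share above that of all genes tested. Among the rises Dusp5, a phosphatase of ERK, averaged 8.04, 3.94 and 27.7 CPM after injury, against 0.497, 0.903 and 1.30 CPM without it. Of 18 targets of the mechanical factors YAP and SRF 7 rose, among them Cyr61, a secreted matrix protein (2.26 ± 0.16), and Lats2, a kinase that restrains YAP, fell (-0.50 ± 0.10). Hbegf, a ligand of the EGF receptor, was the sole rise of 16 growth factors of repair, with a mean effect of 3.66 ± 0.19, and Igf1, which promotes muscle growth, the sole fall, with -1.70 ± 0.18.

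The machinery that makes ribosomes and proteins rose broadly. All 44 tested ribosome biogenesis genes rose, 41 of them in each population, with a median mean effect of 1.82 against -0.14 over all genes tested. Npm1 (chr11:33152287-33163206), the abundant nucleolar chaperone nucleophosmin, had 495, 503 and 403 CPM in injured CD31+ cells, against 164, 183 and 157 CPM in uninjured ones. In MSC it had 1726, 1569.8 and 1647 CPM after injury, against 240.2, 221 and 215 CPM without it, and in MuSC 2194, 2287 and 2183 CPM, against 672, 674 and 659 CPM. No injured library overlapped an uninjured one of its population, and the mean effect was 2.02 ± 0.06 (edgeR adjusted p = 2.3e-16). Rpf2, which helps to build the large ribosomal subunit, had effects of 2.04 ± 0.17, 2.29 ± 0.16 and 1.96 ± 0.15.

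Translation factors and their suppliers followed the same direction. Of 26 translation initiation and elongation factors 25 rose, all 25 in each population, among them Eif5a, which helps ribosomes past proline stretches, at 1013, 2763 and 2913 CPM after injury, against 459, 574 and 734 CPM without it. Of 20 tRNA synthetases 19 rose, 18 in each population, with Gars, the glycine enzyme, at a mean effect of 1.62 ± 0.07. Of 28 cytosolic ribosomal protein genes 20 rose and 8 passed with mixed signs, with list medians of 0.89, 1.17 and 0.16. Ribosomal protein genes have many processed pseudogenes, which makes their counts uncertain. Of 16 subunits and factors of RNA polymerases I and III, which transcribe ribosomal and transfer RNA, 13 rose.

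Nucleotide synthesis genes rose in 19 of 21 cases, led by Nme1, a nucleoside diphosphate kinase, with a mean effect of 2.47 ± 0.07. Of 13 genes of the one-carbon and serine pathway 10 rose, among them Shmt2, a serine hydroxymethyltransferase, with a mean effect of 2.20 ± 0.10. Amino acid and glucose transporters rose in 9 of 14 cases, and Slc43a3, a purine transporter, fell (-0.98 ± 0.12). Of 8 polyamine genes 5 rose, among them Odc1, the first enzyme of the pathway (1.85 ± 0.18), and Srm, spermidine synthase (2.88 ± 0.24). Nuclear transport genes rose in 18 of 21 cases, with Ran, the small GTPase that gives nuclear transport its direction, at 419, 997 and 1265 CPM after injury, against 119, 139 and 207 CPM without it. Of 24 splicing genes 22 rose, and Srsf5, a splicing regulator, fell with a mean effect of -0.39 ± 0.07.

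Promoter sequence was compared for the rises because Myc binds the E-box CACGTG. These letters, which read the same on both strands, occurred in the 250 bases before the start of 11.0% of the 1114 genes that rose in each population and have a promoter in the RefSeq table (80.8% of the 1378), against 6.05% of all 27025 promoters. The median GC content was 59.6% for the rises and 52% for all promoters, so the sets also differed in base composition. Among all genes tested the share was 8.17% at the same median GC content of 59.6%, and among the genes that fell in each population it was 7.23%. A promoter was in the table for 70.7% of all genes tested and 76.0% of those falls, less than for the rises. This unequal coverage was not accounted for, so no conclusion is drawn from these shares. In the ribosome biogenesis list 3 of 39 promoters (7.69%) held the E-box. Below are 4 promoters from RefSeq, build GRCm38.p6, each the 150 bases before the annotated start on the plus strand. They are shown because 3 hold the E-box, in a glycolytic rise, a nucleolar rise and a leading fall, and 1 holds TGACTCA, the letters bound by AP-1 (searched with their reverse complement TGAGTCA), in a leading rise. Capitals mark these letters, and Nop2, a nucleolar RNA methyltransferase, was chosen after its values were seen.
Ldha, chr7:46845654-46845803, plus strand: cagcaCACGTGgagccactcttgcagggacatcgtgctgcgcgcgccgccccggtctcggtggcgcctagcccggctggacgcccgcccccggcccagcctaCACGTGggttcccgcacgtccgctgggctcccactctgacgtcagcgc
Nop2, chr6:125131733-125131882, plus strand: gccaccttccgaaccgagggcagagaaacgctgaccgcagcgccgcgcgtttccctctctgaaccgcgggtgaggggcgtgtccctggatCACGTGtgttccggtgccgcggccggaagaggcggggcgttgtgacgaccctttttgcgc
Crebrf, chr17:26715500-26715649, plus strand: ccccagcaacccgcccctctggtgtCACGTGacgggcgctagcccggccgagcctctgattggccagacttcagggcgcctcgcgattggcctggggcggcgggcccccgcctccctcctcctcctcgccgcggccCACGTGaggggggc
Plaur, chr7:24462333-24462482, plus strand: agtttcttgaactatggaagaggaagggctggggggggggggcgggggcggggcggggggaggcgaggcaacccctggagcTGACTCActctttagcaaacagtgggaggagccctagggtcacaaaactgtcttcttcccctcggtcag
The E-boxes begin 145 and 48 bases before the start in Ldha, 60 bases before it in Nop2, and 125 and 14 bases before it in Crebrf. Ldha and Nop2 rose, Nop2 with a mean effect of 2.14 ± 0.09, and Crebrf fell. In Plaur the AP-1 letters begin 69 bases before the start. They occurred in 3.05% of the same 1114 promoters, in 3.05% of the promoters of all genes tested and in 4.43% of all promoters. A match describes letters in a window and was not tested for binding.

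Protein folding and degradation genes rose together as well. All 26 tested proteasome genes rose in each population. Psmd14, the deubiquitinase of the proteasome lid, had 242, 249 and 227 CPM in injured CD31+ cells, against 94.4, 101 and 91.8 CPM in uninjured ones, and its effects were 1.32 ± 0.09, 1.57 ± 0.09 and 1.53 ± 0.09. Of 23 cytosolic and mitochondrial chaperone genes 18 rose, each of the 18 in every population, with Cct8, a subunit of the chaperonin for actin and tubulin, at 547, 986 and 1285 CPM after injury, against 163, 289 and 404 CPM without it. Hspd1, the mitochondrial chaperonin HSP60, had a mean effect of 2.75 ± 0.06, and its cofactor Hspe1, which overlaps it on the opposite strand, one of 2.16 ± 0.11. Of 18 endoplasmic reticulum chaperone genes 15 rose, with Hspa5, the chaperone BiP, at 1.13 ± 0.07, while Herpud1, a target of the unfolded protein response, fell with -0.61 ± 0.08.

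Stress programs differed in how many members rose. Of 20 NRF2 targets and metallothioneins 14 rose, among them Txn1, thioredoxin (1.47 ± 0.07), and Prdx1, a peroxiredoxin (0.80 ± 0.05). Of 16 genes of the ATF4 and integrated stress response 3 rose, a share below the 21.0% of all genes tested, 1 fell and 5 passed with mixed signs, with list medians of 0.53, -0.41 and 0.07. Of 17 targets of p53, 7 rose, among them the apoptosis effector Bax (1.20 ± 0.07) and the nuclease Aen (1.90 ± 0.12), and 4 fell, among them Sesn1 and Trp53inp1.

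Energy metabolism genes rose in part. All 25 tested genes of mitochondrial import and the mitochondrial ribosome rose, 21 in each population, with C1qbp, a mitochondrial matrix protein, at a mean effect of 2.03 ± 0.06. Of 25 oxidative phosphorylation genes 22 rose, 12 in each population. Glycolytic genes rose in 11 of 16 cases: Ldha, lactate dehydrogenase A, averaged 1088, 2658 and 2717 CPM after injury, against 616, 489.9 and 680.0 CPM without it, and Pkm, pyruvate kinase, had a mean effect of 1.52 ± 0.06. Fatty acid oxidation and PPAR targets differed from these in their rises: 1 of 21 rose (4.76%), against 21.0% of all genes tested. The 7 falls (33.3%) were a share near the 25.0% of all genes tested, and none of them passed in each population. Lpl, lipoprotein lipase, was among these falls (-1.47 ± 0.13). Of 20 cholesterol synthesis genes 4 fell and none rose, and between 1 and 5 fell under the other settings; 25.0% of all genes tested fell, so this share was not above the background.

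Of 25 tested DNA replication genes 21 rose, 11 in each population, and the list medians were 0.67, 4.09 and 3.10. Mcm5, a subunit of the replicative helicase, averaged 69.6 ± 11.8, 554 ± 133 and 663 ± 37.8 CPM after injury, against 22.8 ± 4.07, 10.9 ± 4.06 and 45.1 ± 9.86 CPM without it. Mitosis genes were divided: 7 of 21 rose with 1 sign (33.3%, against 21.0% of all genes tested) and 9 passed with mixed signs. The list medians were -0.47, 3.57 and 3.38. Tested by population, none of the mitosis genes rose in CD31+ cells, against 20 in MSC and 20 in MuSC. Between 6 and 12 mitosis genes rose under the other settings. Among 18 regulators of G1, 5 rose and 5 fell, shares near the 21.0% and 25.0% of all genes tested, and Cdk2, Cdk6, Cdkn1a, E2f1 and E2f3 passed with mixed signs. Cdk4 (1.22 ± 0.05), Ccnd1 (1.35 ± 0.11), Ccnd2, Ccne1 and Ccne2, which drive entry into S phase, rose, and Cdkn1b, Cdkn1c, Cdkn2c, Cdkn2d and Rbl2, which hold cells in G1, fell, while Cdkn1a is an inhibitor too.

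Of 24 actin and tubulin genes 16 rose, 15 in each population, with Pfn1, the actin-binding protein profilin, at a mean effect of 1.58 ± 0.06. Tubulin genes are close copies of each other, so reads could have been divided between them. Provisional matrix genes rose in 10 of 15 cases, among them Cd44, the hyaluronan receptor (2.18 ± 0.12), and Lgals1, galectin 1 (1.55 ± 0.13). Genes that cut matrix or block such cutting were divided, with 6 rises and 6 falls among 19 tested. Adam12, a metalloproteinase, rose with a mean effect of 3.70 ± 0.25, and Timp2, a relative of Timp1, stood at 11.4, 153 and 94.5 CPM after injury, against 55.1, 1140.4 and 216 CPM without it. Few collagens moved in 1 direction: none of 16 rose, Col5a1 fell, and 8 passed with mixed signs. Of 14 integrin genes 2 rose, among them Itga5, of the fibronectin receptor (1.50 ± 0.16), and 5 fell, among them Itgb5 (-1.54 ± 0.09).

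Of 6 genes listed as neutrophil-attracting chemokines 5 rose, 2 of them in each population. The rises count Pf4, which is not a classic neutrophil attractant. They also count Cxcl3, which had 5 counts in injured and 0 in uninjured CD31+ cells. Cxcl2, which recruits neutrophils through CXCR2, averaged 14.3, 10.3 and 3.02 CPM after injury, against 0.198 CPM in uninjured CD31+ cells and no count in uninjured MSC and MuSC. The injured MuSC libraries had 1.32, 6.84 and 0.906 CPM, so most of their counts came from library 2, which also held Pdgfra, and no bound is given for MuSC. The level was at least 53.1-fold higher in MSC at the same floor, and the ratio in CD31+ cells was 80.2 with an exact 95% interval of 22.0 to 666. Cxcl1, Cxcl2 and Cxcl3 are close copies, so their separate values are uncertain.

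**Figure D3:**
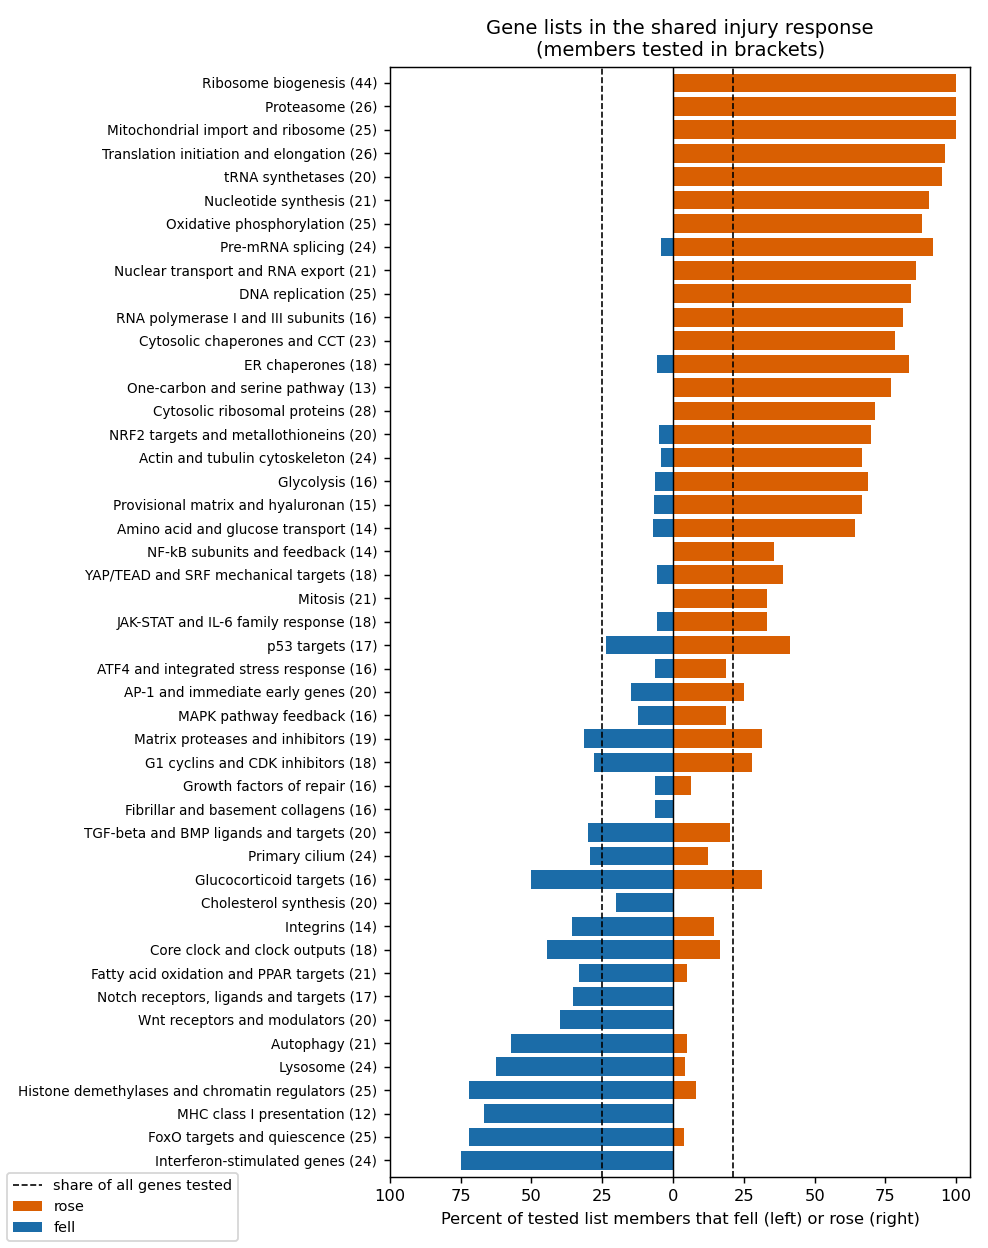
Percent of the tested members of each gene list that rose (right) or fell (left) in the shared response; dashed lines mark the share of all genes tested, 21.0% for rises and 25.0% for falls. Every tested member of the ribosome biogenesis, proteasome and mitochondrial import and ribosome lists rose, and 18 of 24 interferon-stimulated genes fell.

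Among the leading falls, Ecm2 (chr13:49504810-49532789), a secreted matrix protein, had 23.6, 20.1 and 26.5 CPM in injured CD31+ cells, against 127, 107 and 91.8 CPM in uninjured ones. The values were 45.0, 82.0 and 58.8 CPM after injury against 424, 416 and 364 CPM without it in MSC, and 6.00, 6.35 and 10.2 CPM against 26.5, 25.0 and 38.7 CPM in MuSC. No libraries of the 2 conditions overlapped within a population, and the mean effect was -2.30 ± 0.13 (edgeR adjusted p = 1.9e-11). Apoe (chr7:19696109-19699188), the lipid carrier apolipoprotein E, averaged 349.6 ± 121, 118 ± 66.9 and 782 ± 141 CPM (SD, n = 3) after injury, against 1313 ± 99.6, 515 ± 261 and 3730.1 ± 840.2 CPM without it. Its effects were -1.91 ± 0.44, -2.13 ± 0.45 and -2.25 ± 0.45.

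Sesn1 (chr10:41809935-41908424), a sestrin that restrains the growth kinase mTORC1 and is a target of FoxO factors and p53, had 21.3, 27.8 and 31.7 CPM in injured CD31+ cells, against 76.0, 102 and 97.3 CPM in uninjured ones. In MSC it had 22.6, 28.3 and 19.2 CPM after injury, against 97.3, 98.2 and 90.1 CPM without it, and in MuSC 54.5, 62.0 and 55.0 CPM, against 264, 255 and 254 CPM. The mean effect was -1.99 ± 0.09 (edgeR adjusted p = 1.9e-13), with no overlap of libraries in any population. The organic anion transporter Slco2b1 (-2.39 ± 0.15), the membrane protein Itm2a (-2.36 ± 0.20), the ADP-ribosyltransferase family gene Art3 (-2.36 ± 0.15), the cytochrome Cyp2d22 (-1.89 ± 0.12), the Yippee family gene Ypel3 (-2.11 ± 0.19) and Crebrf, a regulator of the transcription factor CREB3 (-2.05 ± 0.29), were also among the falls with the largest smallest-of-3 effect. Art3 shares exon bases with Cxcl10 on the opposite strand. By the naming rule, the largest mean falls beyond these were those of Tcp11l2 (-2.35 ± 0.13), Klhl24, a ubiquitin ligase adaptor (-2.22 ± 0.11), and Itih5, a hyaluronan-binding protein (-2.17 ± 0.10).

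Genes of quiescence and catabolism fell as groups. Of 25 FoxO targets and quiescence genes 18 fell, 8 in each population, and Sod2, mitochondrial superoxide dismutase, rose. Fbxo32, the ubiquitin ligase atrogin 1, averaged 6.03, 2.23 and 2.03 CPM after injury, against 23.4, 19.0 and 13.8 CPM without it. Of 21 autophagy genes 12 fell and Atg5 alone rose, and Ulk1, the kinase that starts autophagy, had effects of -1.54 ± 0.20, -1.41 ± 0.22 and -1.48 ± 0.21. Of 24 lysosomal genes 15 fell, led by Psap, the precursor of the saposins (-1.42 ± 0.06), and Cd63, a tetraspanin of late endosomes, rose (1.36 ± 0.07). Chromatin regulators fell in 18 of 25 cases, among them Kmt2c, a histone methyltransferase (-1.23 ± 0.08), and Kdm5b, a histone demethylase (-1.35 ± 0.10), while Dnmt1 and Ezh2, which are high in dividing cells, rose.

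Interferon and antigen presentation genes fell as well. Of 24 interferon-stimulated genes 18 fell and none rose, 9 of the falls in each population, with list medians of -1.23, -0.58 and -0.72. Cmpk2, a mitochondrial nucleotide kinase of this set, averaged 33.9, 5.72 and 6.62 CPM after injury, against 104, 24.8 and 20.5 CPM without it. Of 12 genes of MHC class I presentation 8 fell and none rose, among them H2-D1, a class I heavy chain, at 2493 ± 463, 819 ± 76.0 and 314 ± 13.7 CPM after injury, against 3752 ± 573, 1403 ± 176 and 466 ± 33.2 CPM without it; H2 genes are close copies of each other, so their separate values are uncertain. Of 11 complement genes and regulators 6 fell and none rose, with Serping1, the inhibitor of C1, at a mean effect of -1.21 ± 0.17.

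Clock, hormone and developmental signalling genes changed in part. Of 18 clock genes 8 fell (44.4%) and 3 rose (16.7%), against 25.0% and 21.0% of all genes tested. By population 1 clock gene fell in CD31+ cells, 7 in MSC and 8 in MuSC, with 2 rises in each. Nr1d1 (REV-ERB alpha) had effects of -0.39 ± 0.37, -2.59 ± 0.40 and -2.05 ± 0.39, and Cry1, a repressor of the clock, rose with a mean effect of 1.14 ± 0.15. The labels do not give the time of day at which tissue was taken, so injury and time of day cannot be told apart for these genes. Of 16 glucocorticoid receptors and targets 8 fell (50%) and 5 rose (31.25%). The receptor genes Nr3c1 and Nr3c2 fell with mean effects of -1.17 ± 0.10 and -2.53 ± 0.18, and Mt1, Mt2, Errfi1, Fkbp5 and Angptl4 rose. None of 17 Notch genes rose and 6 fell (35.3%, against 25.0% of all genes tested), among them Notch3, a receptor (-1.20 ± 0.10). By population 1 Notch gene fell in CD31+ cells, 6 in MSC and 8 in MuSC, while 2 rose in MSC and 1 in MuSC. None of 20 genes listed as Wnt receptors and modulators rose and 8 fell (40%), among them the transcription factor gene Tcf7l2. The 8 falls also count Tcf4 (-0.99 ± 0.06), an E-protein transcription factor that is not the Wnt effector encoded by Tcf7l2. Of 24 genes of the primary cilium 7 fell, a share near the 25.0% of all genes tested, and 3 rose.

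Sharing a direction did not mean sharing a size. The injury by population test (edgeR, 2 degrees of freedom) passed for 3775 genes, 24.7% of those tested, and among the shared changes for 1091 of the 3196 rises and 666 of the 3814 falls, 1757 in all. Without the 3 libraries described under the markers below, it passed for 1127 shared changes. Among the 1091 rises of unequal size the effect was largest in MSC for 680, in MuSC for 280 and in CD31+ cells for 131, and it was smallest in CD31+ cells for 683. Over all 3775 genes that passed, the effect was largest in size in MSC for 1724, in MuSC for 1432 and in CD31+ cells for 619. It was smallest in CD31+ cells for 2153 of these, so this order is not particular to the shared rises. The genes of the naming rule with the largest test values were Tubb6, Mcm3, Mcm6, Mif, Myc and Asns.

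Asns, asparagine synthetase, averaged 179, 263 and 109 CPM after injury, against 40.9, 26.4 and 0.128 CPM without it. The injured MuSC libraries held 2234 counts of Asns, against 1 count in the uninjured ones, a ratio of 1286 with an exact 95% interval of 230.5 to 50800. Tubb6, a beta tubulin, averaged 1584, 1202 and 1212 CPM after injury, against 53.4, 627 and 111 CPM without it. In Myc the effects were 4.15 ± 0.17, 2.07 ± 0.14 and 1.20 ± 0.14, in the reverse order of the uninjured levels. Mcm3 and Mcm6, helicase subunits, and Mif, a cytokine, had their smallest effects in CD31+ cells: 1.21 ± 0.16, 4.71 ± 0.18 and 3.72 ± 0.17 for Mcm3, 0.63 ± 0.18, 3.99 ± 0.20 and 3.89 ± 0.20 for Mcm6 and 0.75 ± 0.13, 3.31 ± 0.13 and 2.29 ± 0.13 for Mif.

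**Figure D4:**
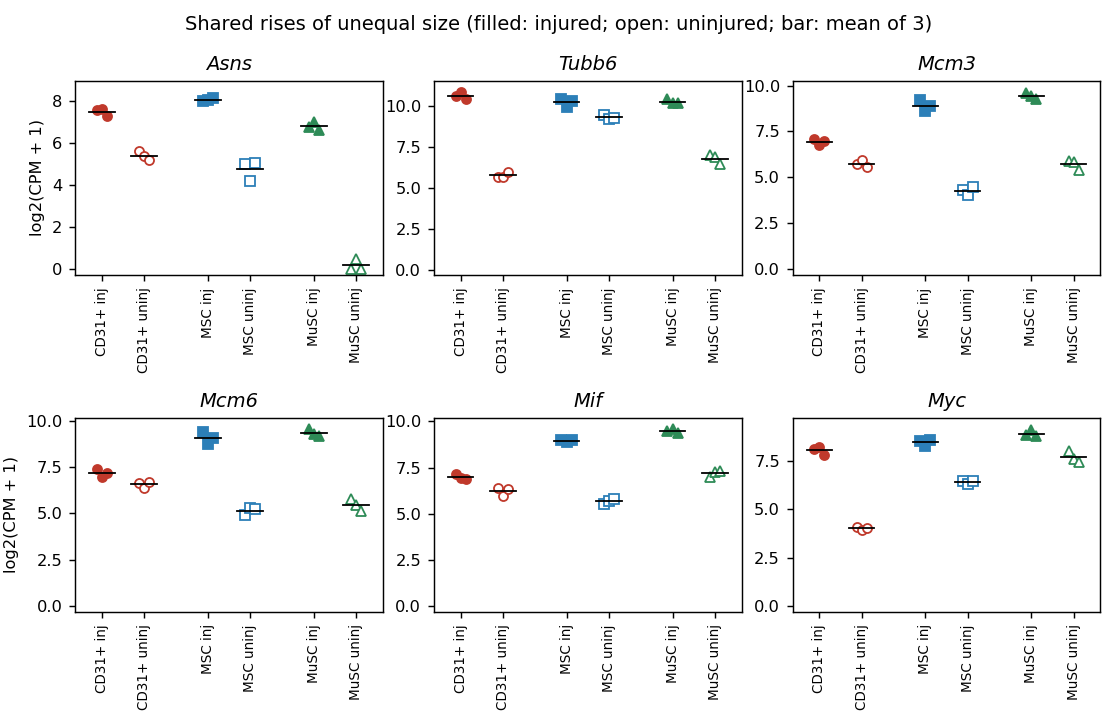
Level of the 6 named rises whose effect differed most between populations, as log2(CPM + 1) in every library; filled symbols are injured and open symbols uninjured libraries, and bars are means of 3. Mcm3, Mcm6 and Mif changed least in CD31+ cells, and Myc changed least in MuSC.

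Genes of the shared rise were shorter than those of the shared fall. The median gene span in the GENCODE annotation was 15260 bases for the genes that rose in each population and 31840 bases for those that fell in each population, against 25020 bases over all genes tested. The median exon length was 3476 and 5740 bases in the same order, against 4550 bases. Protein-coding genes made up 98.8% of the rises and 95.1% of the falls, against 86.8% of all genes tested. These differences are descriptions, and the part of length in which genes passed was not tested.

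Markers of other cell types moved with injury, some in single libraries and some in all libraries of a group. The stromal sums in MuSC given above were lower in every injured library, but single members were divided. Of the 12 stromal markers 4 rose and 5 fell in MuSC, with a median MuSC effect of 1.32. The satellite cell markers summed to 1014 to 1192 CPM in injured MSC, against 325 to 366 CPM in uninjured MSC, while Pax7, the defining gene of satellite cells, had no count in any injured MSC library. The neutrophil markers summed to 21.1 to 57.8 CPM in injured against 2.13 to 23.1 CPM in uninjured CD31+ cells. In MSC the sums overlapped, at 43.5 to 106 CPM after injury against 29.8 to 106 CPM without it. They were lowest in MuSC, at 1.17 to 7.31 CPM after injury against 0 to 0.766 CPM without it. Among these markers Lcn2 had 58 counts in injured and 0 in uninjured MuSC. The part of markers of other cell types in the shared changes was not tested. The 14 leukocyte markers summed to 138 to 368 CPM in injured CD31+ libraries, with none at 0, against 58.5 to 92.8 CPM in uninjured ones, and were at or below 6.98 CPM in every MSC and MuSC library. The 14 macrophage and monocyte markers reached 212 CPM in the first injured CD31+ library, against at most 21.4 CPM in the other injured and 18.3 CPM in the uninjured CD31+ libraries. Injured MuSC libraries 2 and 3 held Pdgfra, as given beside Ccl2. With these 3 libraries left out together, a choice made after seeing the data, 3151 genes rose and 3120 fell, and all 44 ribosome biogenesis and all 26 proteasome genes rose.

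The summed level of 14 muscle fiber transcripts was lower after injury in every population, although single members such as Myh4 had effects of mixed sign. The sums were 56.0 to 103 CPM in injured against 145 to 197 CPM in uninjured CD31+ cells, 15.4 to 27.2 CPM in injured against 172 to 443 CPM in uninjured MSC, and 260 to 348 CPM in injured against 613 to 694 CPM in uninjured MuSC. Of 13 such genes tested 10 fell, among them Mylpf, a myosin light chain (-2.40 ± 0.25), and their part in other falls was not tested. Endothelial markers summed to 14.3 to 22.0 CPM in injured against 94.1 to 116 CPM in uninjured MSC. Most of this was 1 gene, the endothelial receptor Tek, a shared fall with 11.8 CPM in injured against 102 CPM in uninjured MSC. Other endothelial markers were low there: Pecam1 had at most 1.43 CPM and Cdh5 at most 0.213 CPM in any MSC library.

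In CD45+ cells, a mixture of leukocyte types that was not used to choose the genes, part of the response went the same way. Of 16263 genes tested with CD45+ libraries included, 16.0% rose and 18.5% fell in CD45+ cells. Of the 3190 shared rises tested there, 1304 (40.9%) rose and 226 fell, and of the 3799 shared falls, 1169 (30.8%) fell and 249 rose. Of the genes that passed in each of the 3 populations, 837 of 1378 rises (60.7%) rose and 363 of 783 falls (46.4%) fell in CD45+ cells. Proteasome genes rose in 24 of 26 cases and ribosome biogenesis genes in 29 of 44. Timp1 and Plaur had CD45+ effects of 7.58 ± 0.84 and 1.78 ± 0.28, and Sesn1 one of -1.61 ± 0.17. By contrast, none of 25 DNA replication genes rose in CD45+ cells and 13 fell, 13 of 24 lysosomal genes rose and 2 fell, and 7 of 25 interferon-stimulated genes rose and 5 fell. Levels within cells and the mix of cell types cannot be told apart in CD45+ libraries.

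**Figure D5:**
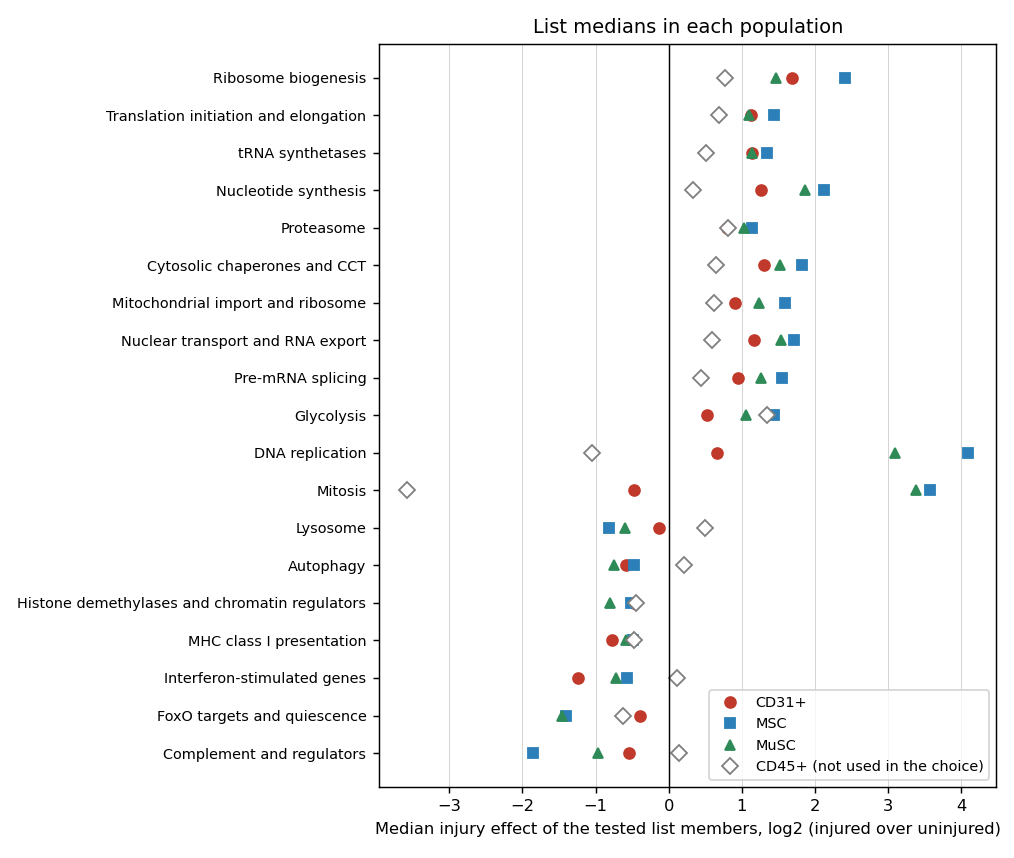
Median injury effect (log2, injured over uninjured) of the tested members of 19 gene lists in CD31+ cells, MSC, MuSC and CD45+ cells, the last not used to choose the genes. The DNA replication and mitosis medians lie above 3 in MSC and MuSC and below 0 in CD45+ cells.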

How the data were processed

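RNA was measured in sorted cells by polyA-primed cDNA, transposon fragmentation and paired 25-base reads, per the labels' protocols, with no molecular identifiers and no strand marking named there. The authors deposited a table of read counts per gene symbol; STAR 2.5.4, featureCounts and build mm10 are named in the submitters' processing notes. All 24 columns matched a sample by name. Counts of the 18 CD31+, MSC and MuSC libraries were fitted with edgeR 4.0.16 in R 4.3.3 (filterByExpr, TMM scaling, robust quasi-likelihood, a mean for each of 6 groups, 12 residual degrees of freedom). The tests were the mean of the 3 injury effects, each population's effect, and the injury by population term, each with Benjamini-Hochberg adjustment over all genes tested and a threshold of 0.05. A second fit took all 24 libraries for the CD45+ effect. CPM values (counts scaled to a common library total, with TMM factors) and log2 effects were computed from the deposited counts. The labels call the replicates biological without naming separate animals, so the p-values speak to library spread, which may be technical.

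The members and the 59 gene lists were chosen with earlier results of these data known. Genes were named by a rule: among genes that passed in each population without overlap of libraries and with at least 20 CPM in the higher condition, those with the largest smallest effect, the largest mean, the most alike effects or the largest injury by population value; up to 3 members a list by adjusted p; and members against their list. Names that complete a count of a list are given without values, and some results the rule covers are not reported here. Coordinates and overlaps come from GENCODE (GRCm38) by symbol, which matched 14965 of the 15254 genes tested. Besides the overlaps named in the report, Cct8, Nr1d1, Shmt2, Bmp6, Cdk4, Ccnd1, Ezh2, Notch3, Kmt2c, Slco2b1, Fbxo32, Nr3c2, Tgfb2, Mt2, Mxd4, Mxi1, Dusp5 and Col5a1 share exon bases with a gene on the opposite strand. Of the RefSeq promoter windows compared, 84.5% shared a short stretch of bases with a GENCODE transcript of the same symbol. Such a match does not require that the RefSeq and GENCODE starts coincide, and distances to the start refer to RefSeq. On simulated counts for 14791 genes, a call needed the mean-effect test to pass and 1 sign in all 3 populations, for changed genes the simulated sign. So called were 73 of 100 genes changed by 1 and 90 of 100 changed by 2 (log2), and 2 of 14591 unchanged genes. Alternatives were limma 3.58.1 voom, DESeq2 1.42.0, RLE scaling, no filter, a fit on 24 libraries, replicate blocks and each library left out.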

Additional observations from a re-analysis of the deposited data

Results flagged for a closer look

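The size of the injury effect differed between populations, by the injury by population F test (edgeR, adjusted p below 0.05), for 1757 shared changes, including genes named in the report. No explanation was weighed. Among rises whose effect was largest in CD31+ cells the F value was 60.7 for Cd63, 10.8 for Fkbp5, 16.8 for Hspa5, 14.3 for Mt1, 12.2 for Mt2, 38.4 for Mthfd2, 101 for Myc, 9.61 for Socs3 and 164 for Tubb6. Among rises whose effect was largest in MSC the F value was 28.6 for C1qbp, 10.4 for Ccnd1, 25.3 for Cdk4, 45.7 for Eif5a, 6.68 for Errfi1, 9.92 for Ezh2, 40 for Hspd1, 10.3 for Ier3, 65.5 for Ldha and 22 for Mcm2. It was 121 for Mcm3, 68.1 for Mcm5, 109 for Mcm6, 103 for Mif, 16 for Nop2, 64 for Npm1, 44.1 for Pkm, 29.3 for Ran and 61.8 for Sod2. Among rises whose effect was largest in MuSC the F value was 89.3 for Asns, 12.2 for Ccne2, 34 for Cd44, 56.3 for Ddah1, 54 for Dnmt1, 16.9 for Fosl1, 34.4 for Hmga1, 12.4 for Odc1, 6.36 for Pfn1 and 9.49 for Plaur. It was 7.33 for Shmt2, 25.3 for Tuba1c and 50.6 for Txn1. Among falls whose effect was largest in MSC the F value was 12.5 for Itih5, 14.8 for Klhl24, 18.4 for Lpl, 8.5 for Mylpf, 9.27 for Nr1d1, 6.17 for Nr3c1, 5.59 for Nr3c2, 14 for Psap, 23.7 for Tcp11l2 and 32.9 for Tek. It was 19 for Timp2 and 7.88 for Trp53inp1. Among falls whose effect was largest in MuSC the F value was 7.08 for Fos, 14.9 for Herpud1, 16.3 for Kdm5b, 8.26 for Lats2, 26.8 for Notch3 and 21.5 for Tcf4.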

How the results depend on the processing

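The mean effect of no named gene changed sign under any setting tried, but which of rises and falls were more numerous did change. Whether the effect of each single population kept its sign was not compared, and Cd151, Prrx1, Elf4 and Gtf2i have an effect close to 0 in a population. With 3196 rises and 3814 falls in the report, RLE scaling gave 2997 and 4134, no filter 3551 and 3268 (more rises than falls), the fit on 24 libraries 3248 and 3650, limma voom 3204 and 3997, and DESeq2 3051 and 4345. Leaving out 1 library at a time gave 3178 to 3359 rises, 3441 to 3901 falls, 8645 to 8944 genes of 1 sign, 1313 to 1449 rises and 562 to 734 falls that passed in each population, 1336 to 1647 shared changes of unequal size, and 1140 to 1312 rises and 873 to 988 falls shared with CD45+ cells. Leaving out injured CD31+ library 1 and injured MuSC libraries 2 and 3 together, chosen after seeing the data, gave 3151 rises and 3120 falls, 451 falls that passed in each population and 1127 shared changes of unequal size. It leaves fewer samples, with 1 injured MuSC library assumed to vary like the other groups. Of 5940 comparisons of 220 named genes with other settings, 5862 kept their side of the threshold, 66 lost it and 12 gained it. The losses concern 14 genes, among them Cd151, Prrx1 and Gtf2i of the report. Same-numbered libraries of different populations in a condition correlated at r = -0.0118 to 0.126 in their deviations from group means (median 0.0267, against -0.0147 for other numbers), over 0.1 in 2 of 18 pairs, so the numbers did not meet the criterion for pairing, r over 0.1 in every pair; whether populations share mice cannot be told from these values. A replicate block gave 3181 rises and 3729 falls as an additive term, 3185 and 3957 with duplicateCorrelation, and 3166 and 3662 when populations were averaged to 3 against 3, and it moved no count of genes by over 1.5 times. In a single library 3 counts correspond to 0.387 to 1.15 CPM, which limits what could be seen of lower levels.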
